A study of Drosophila melanogaster with 6 samples.

Results

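The p24 cargo receptor family of Drosophila melanogaster was examined in RNA from whole embryos at about stage 14. The 7 members are the rows of the deposited TPM table (a transcript level per unit of length, scaled to a fixed sum in each library) with the gene symbols bai, CHOp24, p24-1, loj, eca, opm and p24-2, out of 15135 features. They were measured in 3 libraries of wild-type embryos and 3 libraries of embryos mutant for spo. The spo gene encodes a cytochrome P450 enzyme of ecdysone synthesis, and the comparison addresses which transcripts lie downstream of this steroid hormone. The labels give the genotype, stage and replicate number of each library. They give neither the spo allele nor the strain background of either group, and do not say whether replicates came from separate collections, so the tests speak only of variation among the 6 libraries. The family was chosen by the TPM values of p24-2, which was nearly absent from the spo libraries. Its levels are therefore given as a description with no test. The other 6 genes entered by family name.

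p24 proteins are small membrane proteins of the endoplasmic reticulum (ER) and Golgi. A domain inside the lumen contacts cargo, and a short cytosolic tail is gripped by the COPII coat for the outward journey and by the COPI coat for the return. Different members assemble with each other, and in yeast and mammals such complexes help proteins with a glycosylphosphatidylinositol (GPI) anchor to leave the ER. In the fly, eca (eclair) and bai (baiser) are known for their role in signalling by the Dpp receptor Tkv, opm (opossum) and CHOp24 for secretion of the Wnt protein Wg, and loj (logjam) for egg laying. p24-2 lies close to eca as its duplicate, and RefSeq lists a shared older name, CG9443, for both.

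Rebuilt library totals ran from 50038418 to 73449130 reads. Of markers of adult reproductive tissue, the 3 matched follicle cell markers summed to 0.238 to 0.654 TPM per library, with Cp36 at 0 in every spo library, and 3 of the 4 matched testis markers lay under the filter. The fourth, can, stood at 1.62 to 1.78 TPM in wild type and 1.42 to 2.18 TPM in spo (log2 difference 0.07, limma adjusted p = 0.627). Maternal egg transcripts, a list of 6, summed to 5.71 to 6.04 TPM in wild type and 142 to 180 TPM in spo. All 6 were called higher, against 33.9% of all 10019 tested features. The 6 had been used in earlier work on these data, so this count is a description and not an independent test. The part that such a difference between the embryo pools plays in the values below was not tested. In bulk RNA, fewer cells of a type and less RNA per cell cannot be told apart.

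In wild type, 6 of the 7 genes were expressed at moderate to high levels and p24-2 was the lowest. bai, a member of the delta subfamily, stood at 475, 495 and 489 TPM in wild-type replicates 1, 2 and 3, above 98.2% of all features. CHOp24, of the beta subfamily, stood at 262, 260 and 273 TPM, and p24-1, of the gamma subfamily, at 233, 236 and 237 TPM. The replicate ranges of these 3 genes did not overlap, so the order bai, CHOp24, p24-1 was the same in every wild-type library. Next came loj at 216, 219 and 207 TPM, eca, of the alpha subfamily, at 152, 148 and 153 TPM, and opm at 44.8, 45.9 and 46.3 TPM. p24-2 stood at 8.58, 8.71 and 8.59 TPM. All neighbours in this order were separated by more than their replicate ranges. Mean bai was 10.7-fold above opm, mean opm 5.29-fold above p24-2 and mean eca 17.5-fold above its duplicate p24-2. These TPM folds depend on the counted length of each gene, 3554 bases for p24-2, 1533 for opm and 946 for eca. In reads, p24-2 equalled 21.3%, 22.2% and 21.2% of eca in wild-type replicates 1, 2 and 3. The same order held in the spo libraries, again with no overlap between neighbours.

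**Figure D1:**
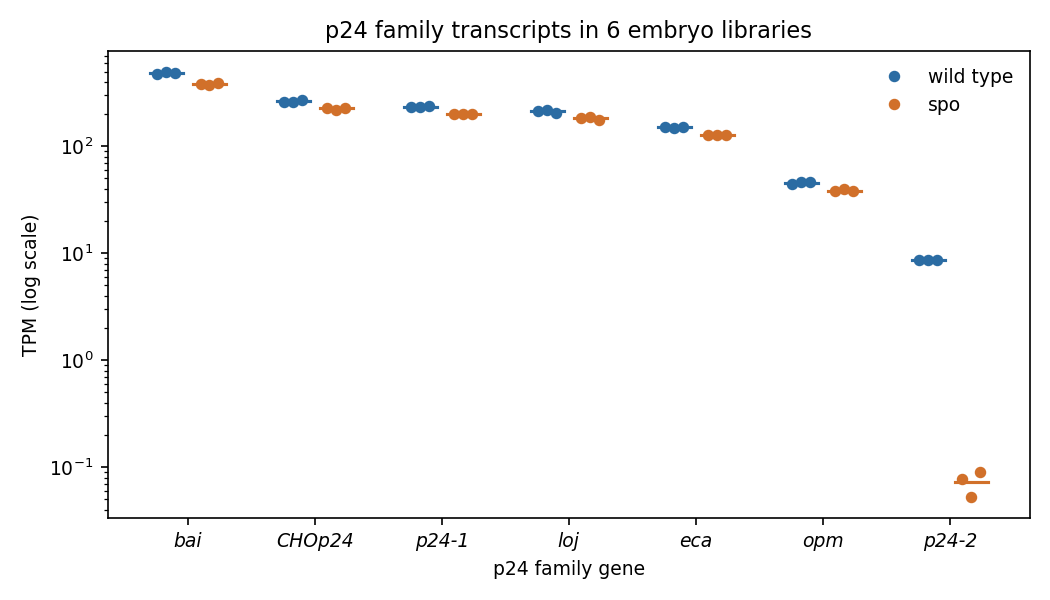
TPM of the 7 p24 genes on a log axis, ordered by wild-type mean, with 1 point per library and a bar at the mean of 3 libraries (blue, wild type; orange, spo). The spo points of bai, CHOp24, p24-1, loj, eca and opm lie slightly below the wild-type points, whereas those of p24-2 lie at 0.0531 to 0.0892 TPM against 8.58 to 8.71 TPM.

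All 6 genes other than p24-2 fell in the spo libraries, bai by 21.3% of the wild-type mean and the other 5 by 14.6% to 15.7%. The log2 differences (spo minus wild type, on log2(TPM + 1)) ran from -0.34 to -0.23 with a median of -0.24. Each gene passed the threshold (limma, Benjamini-Hochberg adjusted p below 0.05 over all 10019 features tested), against 27.9% of tested features called lower. For each of the 6, every spo library lay below every wild-type library, which held for 30.8% of tested features. The median difference over all tested features was 0.02, and 17.3% of them had a difference at or below the median of the 6 genes.

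bai, the most abundant, had the largest fall, although a difference in fall between members was not tested. Its spo libraries stood at 385, 376 and 387 TPM, with means of 486 ± 10.4 TPM in wild type and 383 ± 6.10 TPM in spo (SD, n = 3 libraries each). The difference of -0.34 on the log2 scale had an SE of 0.02 (limma adjusted p = 2.15e-05), lower in 3 of 3 spo libraries.

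eca, the partner gene of p24-2, went from 150.6 ± 2.59 TPM to 127 ± 0.90 TPM. Its spo libraries stood at 128, 127 and 126 TPM, all below the lowest wild-type library at 148 TPM. This gave a log2 difference of -0.24 with an SE of 0.02 (limma adjusted p = 5.69e-05). CHOp24 stood at 230, 219 and 230 TPM in spo and went from 265 ± 7.23 to 226 ± 6.48 TPM (limma adjusted p = 0.000437). Its highest spo library stayed below its lowest wild-type library.

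p24-1 varied least among the spo libraries, at 201, 201 and 201 TPM, a coefficient of variation of 0.095%. It went from 235 ± 1.85 to 201 ± 0.19 TPM (limma adjusted p = 3.39e-05). loj varied most, at 182, 188 and 175 TPM in spo, and went from 214 ± 6.19 to 182 ± 6.53 TPM (limma adjusted p = 0.000720). Even so, its spo and wild-type libraries did not overlap.

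opm, the scarcest of the 6, stood at 37.9, 39.6 and 37.9 TPM in spo and went from 45.6 ± 0.79 to 38.5 ± 1.01 TPM (log2 difference -0.24, limma adjusted p = 0.000377). Over the 6 genes, coefficients of variation between replicates ran from 0.095% to 3.59%, well under the smallest fall of 14.6%. In the authors' deposited table the 6 genes had log2 fold changes from -0.37 for bai to -0.25 for p24-1, with false discovery rates of at most 2.28e-05.

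**Figure D2:**
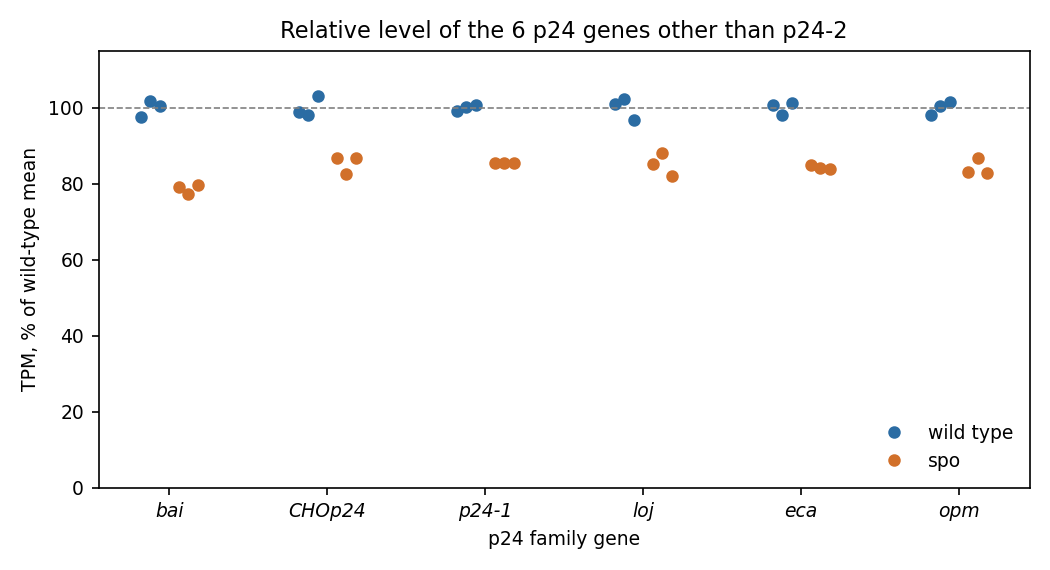
TPM of the 6 p24 genes other than p24-2 as a percentage of the gene's wild-type mean (dashed line, 100), with 1 point per library. The spo points lie below the wild-type points for every gene, with mean levels of 78.7% for bai and 84.3% to 85.4% for the other 5.

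The summed TPM of all 7 members went from 1405 ± 12.5 in wild type to 1157 ± 6.97 in spo, or 82.3% of the wild-type level. bai made up 34.1%, 35.1% and 34.6% of this sum in wild type and 33.1%, 32.7% and 33.4% in spo, so its share was lower in every spo library. The shares of p24-1 and eca were higher in every spo library, at 16.7% and 17.3% on average for p24-1 and 10.7% and 11.0% for eca. The shares of loj, CHOp24 and opm overlapped between the genotypes. The share of p24-2 averaged 0.614% in wild type and 0.0063% in spo. These shares are parts of 1 sum and are not independent of each other.

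p24-2 was nearly absent from the spo libraries. There it had values of 0.0777, 0.0531 and 0.0892 TPM in replicates 1, 2 and 3, with means of 8.63 ± 0.07 TPM in wild type and 0.0733 ± 0.0184 TPM in spo. The wild-type values rest on 766, 737 and 970 rebuilt reads, and the spo values on 6, 5 and 10 reads. Expression in spo was thus very low but not 0 in any library. Summed over libraries, 2473 reads against 21 gave a ratio of wild type over spo of 116. Its exact 95% interval of 76.0 to 188 covers counting error only. The interval allows neither for variation between libraries nor for the choice of p24-2 by these same values. For scale, 1 read of this gene was worth 0.00886 to 0.0130 TPM, and 3 reads, taken as the limit that a count of 0 allows, 0.0266 to 0.0389 TPM. The exact Poisson intervals of the 3 spo libraries overlapped each other and lay within 0.0172 to 0.169 TPM. p24-2 is the top row of the authors' deposited table, with a log2 fold change of -6.86. On the log2(TPM + 1) scale the difference was -3.17, smaller because the pseudocount outweighs the spo values.

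The location of p24-2 bears on what its reads measure. On the dm6 assembly, eca (FBgn0069242) spans 3R, 9684469 to 9685476, and p24-2 (FBgn0053105) spans 3R, 9687402 to 9692794, both on the minus strand and with 1925 bases between the spans. The annotated short transcript of p24-2 has 2 exons over 830 bases with an intron of 62 bases. eca too has 2 exons and an intron of 62 bases. The coding regions encode 244 residues for p24-2 and 216 for eca, within the family's range of 206 to 244. A longer annotated transcript of p24-2 has 10 exons and runs on through Unc-115b, the neighbouring gene for an actin-binding protein, at 3R, 9687060 to 9692775 on the same strand. Of the 3554 exonic bases of p24-2, 3535 (99.5%) are also exonic in Unc-115b, as are all 735 coding bases. The sources used here do not give how the authors' counting divided reads between overlapping genes, so reads of p24-2 and Unc-115b may not be told apart.

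Unc-115b stood at 10.1, 10.1 and 10.2 TPM in wild type and at 5.38, 6.01 and 5.30 TPM in spo, with no overlap between the groups. Its log2 difference was -0.76 (limma adjusted p = 3.93e-05). Its reads may include those of p24-2, by which the family was chosen, so this p is not a separate result for a neighbour. Less the reads of p24-2, Unc-115b stood at 5.67, 5.59 and 5.74 TPM in wild type and 5.34, 5.98 and 5.26 TPM in spo, which overlap. Its paralog Unc-115a, at 3R, 9694386 to 9705417, went from 25.9 ± 0.43 to 24.05 ± 0.70 TPM (log2 difference -0.10, limma adjusted p = 0.0376). By these coordinates, eca, then Unc-115b with p24-2, then Unc-115a lie in a row. CG18542 and CG32939, which the annotation places in the same stretch, are not analysed here.

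The steep difference of p24-2 was not shared by the tested genes around it, which do not include CG18542 and CG32939. Of the 12 other features within 25 kb, 10 were tested, of which 5 were called lower and 2 higher. The 5 include eca, a family member, and Unc-115b, whose exons hold nearly all those of p24-2. Only Unc-115b and nmdyn-D7 had a log2 difference of 0.5 or more in either direction. nmdyn-D7, a nucleoside diphosphate kinase gene beyond eca, rose from 15.1 ± 0.48 to 22.3 ± 1.10 TPM (limma adjusted p = 8.16e-05). CG16817, now called p23, fell from 961 ± 10.4 to 872 ± 30.6 TPM, trbd fell from 30.4 ± 0.62 to 28.3 ± 0.78 TPM, and hyd, an E3 ubiquitin ligase gene, rose from 163.5 ± 0.85 to 174 ± 0.72 TPM. CG9444, dmt and scaRNA:PsiU1-6 did not pass, with log2 differences of -0.06, -0.05 and 0.03. CG9492 and CG8358 lay under the filter, at means of 0.310 to 0.488 TPM in either genotype. Over the 25 kb the calls went in both directions, with more lower than higher. Among all tested features 27.9% were called lower and 33.9% higher.

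**Figure D3:**
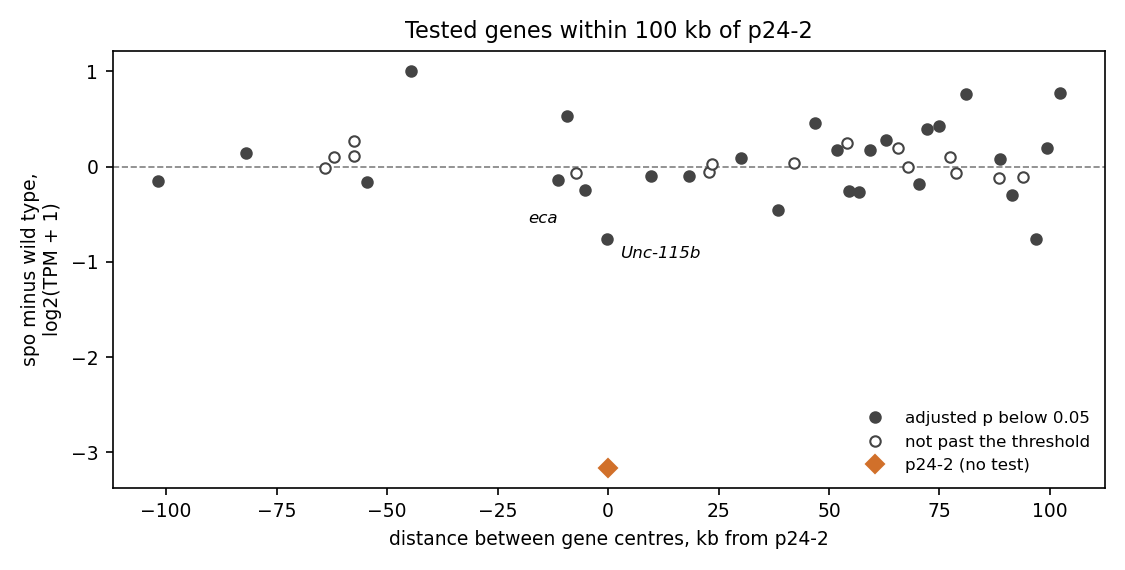
Difference between spo and wild type on log2(TPM + 1) for tested genes within 100 kb of p24-2, plotted by the distance between gene centres in kb (filled, limma adjusted p below 0.05; open, not past the threshold; diamond, p24-2, no test). p24-2 lies at -3.17, and the other genes lie between -0.76 and 1.01.

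Because eca and p24-2 are duplicates, the authors' counting could have split reads between them, and the levels of both carry that uncertainty. p24-2 made up 5.36%, 5.57% and 5.33% of the summed TPM of eca and p24-2 in wild type, and 0.0607%, 0.0419% and 0.0705% in spo. Read as 1 feature, the pair stood at 160, 156 and 161 TPM in wild type and 128, 127 and 126 TPM in spo, a log2 difference of -0.32 against -0.24 for eca alone. p24-2 is counted over a model of 3554 bases and eca over 946 bases, so its share of reads is larger than its share of TPM. Reads of p24-2 equalled 21.3%, 22.2% and 21.2% of those of eca in wild type, and 0.228%, 0.158% and 0.265% in spo. With reads summed over the length of eca, the log2 difference of the pair was -0.52. The short transcript of p24-2 has only 830 of the 3554 bases, and 99.5% of the 3554 are exonic in Unc-115b. The value of -0.52 may therefore include reads of Unc-115b. The sequence identity of eca and p24-2 was not computed.

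Few features shared the pattern of p24-2. Only 4 features had at least 5 TPM in every wild-type library and under 0.5 TPM in every spo library: p24-2, S-Lap1, CG4367 and CG31468. In the opposite direction 3 features met the same limits, slam, CG44005 and CG4404. By the distance between profiles over the 6 libraries, S-Lap1 was the most like p24-2 (root mean square distance 0.015 on log2(TPM + 1) relative to the wild-type mean). S-Lap1, a leucyl aminopeptidase gene known from sperm, averaged 8.15 ± 0.11 TPM in wild type and stood at 0.0217, 0.0178 and 0.0448 TPM in spo. It lies on 3L, and p24-2, CG4367 and CG31468 lie on 3R, CG31468 at a start of 23699328 and CG4367 at 20303955, both far from p24-2. Next after S-Lap1 by distance came CG31468 (0.17), CG33003 on 2L (0.18), CG4362 on 3R (0.26) and CR43641 on 3R (0.27). These values are over 6 libraries of 2 groups, so any feature nearly absent from spo at a similar wild-type level ranks high.

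Most tested genes of the 2 coats that carry p24 proteins were called lower in spo. The lists below were written from knowledge of the pathway, with earlier results of these data known. Among genes of the COPII coat and ER exit sites, 9 of 9 tested were called lower, with a median log2 difference of -0.26. Among the COPI coat and its Arf cycle, 8 of 11 were lower and the other 3 did not pass (median -0.21). Without the p24 genes, the secretory lists together held 82 tested genes, of which 52 were called lower and 11 higher, with a median of -0.16, against 27.9% lower and 33.9% higher and a median of 0.02 over all tested features.

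In the COPII list, Tango1, which exports bulky cargo such as collagen, fell from 146 ± 3.19 to 117 ± 1.17 TPM (log2 difference -0.32, limma adjusted p = 2.89e-05). Sec24CD, a cargo-binding coat subunit, fell from 223 ± 0.95 to 187 ± 2.93 TPM and Sec31, of the outer coat, from 175 ± 2.79 to 146 ± 0.71 TPM. Sec23 of the inner coat fell from 278 ± 4.09 to 236 ± 1.43 TPM. For each of these 4 genes, named for the smallest p in the list, every spo library lay below every wild-type library. That held for 30.8% of all tested features, and the choice by p makes it likely here. The smallest difference in the list was that of Sec13, at -0.11.

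In the COPI list all 7 coat subunits fell. epsilonCOP fell the most, from 114 ± 3.84 to 84.7 ± 1.96 TPM (log2 difference -0.42, limma adjusted p = 3.34e-05). zetaCOP fell from 182 ± 1.33 to 149.9 ± 2.85 TPM, gammaCOP from 186 ± 2.18 to 155 ± 2.24 TPM and deltaCOP from 209 ± 5.85 to 173 ± 2.66 TPM. The guanine nucleotide exchange factor gene garz fell as well. Arf79F, the GTPase that recruits COPI, and ArfGAP1, which switches it off, had log2 differences of -0.08 (adjusted p = 0.226) and 0.02 (adjusted p = 0.451) by limma and did not pass. Arf79F rested on 1 library: without spo replicate 2 its difference was -0.14 and passed (limma adjusted p = 0.00415).

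Of the 5 other cargo receptor genes, 4 were lower and 1 higher (median -0.23), where 27.9% of all tested features were called lower and 33.9% higher. Surf4 fell from 416 ± 4.97 to 344 ± 6.84 TPM, ergic53, a lectin receptor, from 484 ± 6.52 to 416 ± 12.04 TPM, KdelR, which returns ER residents, from 484 ± 16.0 to 414 ± 24.4 TPM and cnir from 46.6 ± 1.14 to 37.5 ± 2.61 TPM. cni (cornichon), which exports the EGF receptor ligand Gurken in the ovary, rose from 111 ± 1.95 to 120 ± 2.80 TPM. Of the 14 genes for SNAREs, Rabs and tethers, 10 were lower and 1 higher (median -0.12). The SNARE gene Membrin fell from 47.9 ± 1.27 to 37.2 ± 0.83 TPM, Slh, a partner of SNARE assembly, went from 39.9 ± 1.28 to 33.3 ± 0.37 TPM, and the Golgi matrix gene GM130 fell from 67.6 ± 0.83 to 56.6 ± 1.36 TPM. Ykt6 rose from 103 ± 2.57 to 121 ± 3.44 TPM, while Syx5 and Use1 had log2 differences of 0.015 and -0.03 and did not pass.

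**Figure D4:**
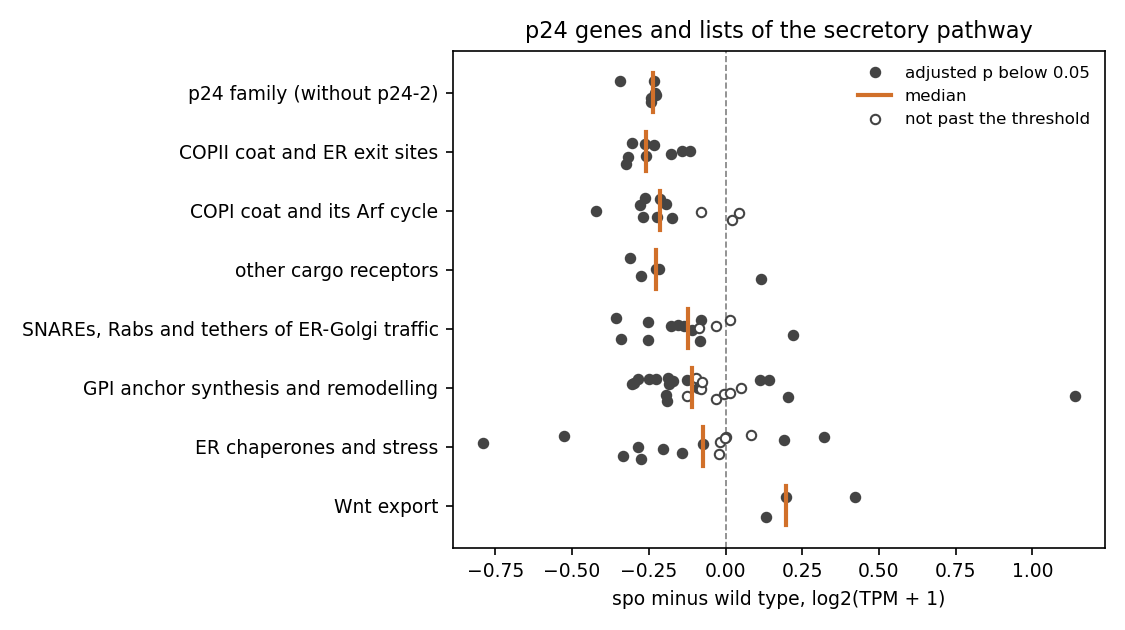
Difference between spo and wild type on log2(TPM + 1) for tested members of each list, 1 point per gene (filled, limma adjusted p below 0.05; open, not past the threshold; orange bar, median; vertical scatter carries no value). The p24 genes other than p24-2 have a median of -0.24, near the COPII (-0.26) and COPI (-0.21) medians, and the Wnt export list lies above 0 with a median of 0.20.

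Lists tied to the known cargo of p24 proteins moved in mixed directions. Of 24 tested genes of GPI anchor synthesis and remodelling, 12 were lower, 4 higher and 8 did not pass (median -0.11), where 27.9% of all tested features were called lower and 33.9% higher. Gpi1, now called PIG-Q, fell from 30.04 ± 0.49 to 24.1 ± 0.23 TPM, CG2144, now PIG-G, from 42.9 ± 0.64 to 34.7 ± 1.11 TPM and CG12263, now PIG-O, from 65.1 ± 0.38 to 57.7 ± 0.14 TPM. CG3876, now PGAP2, rose from 3.86 ± 0.23 to 9.72 ± 1.09 TPM (log2 difference 1.14, limma adjusted p = 3.50e-05). CG9865, now PIG-M, and PIG-C did not pass, with log2 differences of -0.0041 and 0.015 (limma adjusted p = 0.915 and 0.840). In the Wnt export list all 3 genes rose, with wls, the carrier of Wnt proteins, going from 94.5 ± 1.87 to 127 ± 6.50 TPM, por, the enzyme that acylates them, from 8.13 ± 0.20 to 9.47 ± 0.01 TPM, and wg from 75.0 ± 0.95 to 82.3 ± 2.86 TPM.

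Of 15 genes for ER chaperones and stress, 8 were lower and 2 higher (median -0.07), against 27.9% lower and 33.9% higher among all tested features. Pdi, protein disulfide isomerase, fell from 2854 ± 41.6 to 1650 ± 70.8 TPM (log2 difference -0.79, limma adjusted p = 4.25e-06), Hsc70-3, the fly BiP, from 2096 ± 10.6 to 1454 ± 40.0 TPM, Cnx99A, a calnexin, from 698 ± 7.61 to 553 ± 6.98 TPM and Gp93 from 1416 ± 20.1 to 1169 ± 33.7 TPM. The 2 genes called higher were PEK, an ER stress kinase, and crc, the fly ATF4. The stress sensor gene Ire1 and Edem1, of ER-associated degradation, had log2 differences of -0.0020 and 0.0010 with limma adjusted p of 0.949 and 0.978. CrebA, a transcription factor known to raise expression of secretory pathway genes in the embryo, fell from 255 ± 7.66 to 212 ± 11.2 TPM (log2 difference -0.27, limma adjusted p = 0.00109). Its wild-type libraries stood at 262, 256 and 247 TPM and its spo libraries at 207, 225 and 204 TPM, with no overlap. The 4 listed markers of the salivary gland, a highly secretory tissue, were CrebA itself, called lower as given above, Sgs3, fkh and sage. Sgs3 lay under the filter, and fkh and sage had log2 differences of 0.03 and 0.06 and did not pass. The part of this tissue in the fall of CrebA was not tested.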

How the data were processed

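Polyadenylated RNA was extracted with silica columns and made into libraries with an mRNA kit, per the labels' protocols. The authors deposited 1 table of TPM, with each library scaled to the same sum. The other deposited table gives, for each feature, a log2 fold change and mean log2 CPM made by the authors, with a likelihood ratio score, a p-value and a false discovery rate. Per the submitters' processing notes, the authors used edgeR, Subread, featureCounts, STAR 2.5.3a and FastQC 0.11.2 with the dm6 build, in an order not stated. Those sources give neither the strand setting nor the treatment of shared reads.

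limma 3.58.1 with an intensity trend was run in R 4.3.3 on log2(TPM + 1) for features that reached 1 TPM in 3 or more libraries, with genotype as the only term and Benjamini-Hochberg adjustment over all 10019 features. TPM is relative within a library. The fit was tested on simulated data. Reads were rebuilt from TPM and exon length (tolerance 0.001): the annotated length gave whole reads for 14161 of 15135 features, all members included. Gene models and coordinates are those of Ensembl BDGP6, the dm6 assembly. Other p24 genes, CG9308 and CG31787, are not analysed here, nor is PIG-W. Older names were matched through RefSeq synonyms.

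The members and lists were chosen with earlier results of these data known. Named genes were all members, features within 25 kb of p24-2 at 1 TPM or more, the 5 features most like p24-2, and from each list up to 4 genes with the smallest p past the threshold and up to 2 with the largest p. CG9492, CG8358, slam, CG44005, CG4404, CG4367, cni, Sec13, garz, PEK, crc and the marker genes were named after their values were seen. Alternatives were another pseudocount, other filters, other scaling, voom on rebuilt reads, the replicate number as a block and leaving out each library.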

Additional observations from a re-analysis of the deposited data

How the results depend on the processing

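The 6 p24 genes other than p24-2 kept their fall and their call under all 12 alternatives: another pseudocount, no filter, a filter of 5 TPM, the replicate block, median-of-ratios scaling, voom on rebuilt reads and leaving out each of 6 libraries. The log2 difference of bai ran from -0.37 to -0.33 and those of the others from -0.27 to -0.20, with adjusted p of at most 0.00459. All 6 were also called with the replicate block, where 6086 features were called in all, against 6185. The deviations from the group means of libraries with equal numbers had correlations of -0.028, 0.045 and 0.13, which is no sign of pairing. Median-of-ratios scaling gave 3074 lower and 3126 higher features, against 2792 and 3393, and voom 3120 and 3134. p24-2 stood at -5.66 with a pseudocount of 0.1 and at -6.82 with voom, because the pseudocount weighs less. Among the list genes followed, Edem1 turned to -0.019 with median-of-ratios scaling and to -0.020 with voom, and ran from -0.013 to 0.016 when 1 library was left out. Ire1 ran from -0.018 to 0.014 when 1 library was left out, and Syx5 turned to -0.0053 with median-of-ratios scaling and -0.0050 with voom, none of them called. CG9865 ran from -0.033 to 0.011 and PIG-C from -0.023 to 0.047 when 1 library was left out, and PIG-C turned to -0.0025 with median-of-ratios scaling. Arf79F, not called otherwise, passed without spo replicate 2 (-0.14, adjusted p = 0.00415) and ran from -0.14 to -0.04 when 1 library was left out. The pair of eca and p24-2 moved from -0.32 as summed TPM to -0.52 as summed reads over the length of eca, which weighs p24-2 by its longer model. Limits of 10 and 1 TPM left 1 feature high in wild type alone (not p24-2, which averaged 8.63 TPM there) and 9 in spo alone, and limits of 2 and 0.2 TPM left 6 and 4. In a window of 100 kb around p24-2, 6 genes had a log2 difference of 0.5 or more in either direction, against 2 within 25 kb.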

Other observations

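The values of Unc-115b and p24-2 can be set against each other in reads. The exon length annotated for Unc-115b did not give whole reads, and the smallest length that did was 6882 bases, so its deposited model differs from the annotation used here. On that length, the reads of p24-2 were worth 4.431, 4.499 and 4.438 TPM of Unc-115b in wild type and 0.040, 0.027 and 0.046 TPM in spo. Unc-115b less these reads stood at 5.67, 5.59 and 5.74 TPM in wild type and at 5.34, 5.98 and 5.26 TPM in spo, and the groups overlapped, whereas Unc-115b as deposited did not. The subtraction was chosen after the values were seen and holds only if reads of p24-2 were also counted for Unc-115b, which was not tested.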
